A study of Mus musculus with 6 samples.

Results

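The Mrgpr family of G protein-coupled receptors was measured by RNA sequencing of mouse dorsal root ganglia (DRGs). The 8 members described are Mrgprd, Mrgpra1, Mrgpra3, Mrgprb4, Mrgprb5, Mrgprx1 (the mouse gene also called MrgprC11), Mrgpre and Mrgprf. They were chosen by gene name from the 34 rows of the count table that carry an Mrgpr symbol or Mas1, out of 47937 rows in all. The 3 control and 3 Tlx3cko mice were of the C57BL/6 strain and about 2 months old. Their DRGs, from which total RNA was taken, were those of the cervical, thoracic and lumbar levels. The authors deposited raw counts of reads per gene, and the control libraries 1, 2 and 3 held 13761480, 15006871 and 18775628 counts. Tlx3cko libraries 1, 2 and 3 held 15535247, 11458299 and 15303922 counts. In Tlx3cko mice, labelled Tlx3f/f;SNS-cre, both alleles of the transcription factor gene Tlx3 were floxed and removed by a Cre recombinase driven by Nav1.8 (SNS), a sodium channel gene that most nociceptive neurons express from late embryonic life. DRG cells that never express Nav1.8 keep the floxed alleles. Control mice are labelled wild type, whereas the study used floxed littermates as controls in its behavioural tests, and whether the sequenced controls carried a floxed allele or Cre is not given. The 7 markers of sensory neurons as a whole were present in all 6 libraries, at a summed level of 10680, 11630 and 11040 CPM (counts scaled to a common library size) in control and 12130, 11670 and 11290 in Tlx3cko. Tlx3 itself kept 72.7% of its control level in whole DRGs.

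The sexes of the mice were not balanced between the groups. Xist, which marks female cells, was counted 591 and 493 times in replicates 1 and 2 of the controls and at most 2 times in each of the other 4 libraries. The Y-linked gene Ddx3y had 0 counts in control replicates 1 and 2 and between 273 and 525 in those other libraries. Control replicate 3 was therefore the only control that matched the Tlx3cko mice in sex, and a comparison against it alone assumes that this lone library varies as the others do. In that comparison the log2 fold changes were -2.05 for Mrgprd, -3.46 for Mrgpra3, -7.96 for Mrgprb4, -3.07 for Mrgprb5, -0.51 for Mrgpre and 1.13 for Mrgprx1. The edgeR adjusted p-values, after Benjamini-Hochberg adjustment over the genes tested, were 0.000318 for Mrgprd, 0.00164 for Mrgpra3, 0.000123 for Mrgprb4, 0.137 for Mrgprb5, 0.112 for Mrgpre and 0.0135 for Mrgprx1. Against the sex-matched control, then, 3 members were lower past an adjusted p of 0.05, where 1.84% of the 19156 genes tested in this comparison were lower, and 1 was higher, where 1.01% were. Mrgprb5 and Mrgpre did not pass.

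Mrgpr receptors sit in the membrane of small sensory neurons whose endings lie in the skin, and different subsets of these neurons carry different members. Several members are itch receptors: when a ligand binds, they act through G proteins and phospholipase C to raise calcium and open transient receptor potential channels. In mice most of the genes lie in a large cluster on chromosome 7 that holds many pseudogenes, and the transcription factor Runx1 is needed during development for many of them to be expressed.

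Counts below are given as deposited, and normalized counts are scaled by the TMM method to the mean effective library size of 14970767. Log2 fold changes compare Tlx3cko with control, so that negative values are lower in Tlx3cko, and come from edgeR's quasi-likelihood test over the 20006 genes with at least 10 counts in total. An adjusted p under 0.05 after Benjamini-Hochberg adjustment is the threshold throughout. The smallest p that an exact two-sided permutation test of a single value can give here, at 3 mice a group, is 0.1. Clopper-Pearson intervals, given for ratios of pooled counts, and floors of detection cover counting error only. Confidence intervals of log2 fold changes come from the quasi-likelihood fit and also include variation between mice.

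Mrgprd (ENSMUSG00000051207), the receptor for β-alanine, marks a large class of nonpeptidergic neurons of the epidermis. Its counts were 2013, 2672 and 3926 in control libraries 1, 2 and 3 and 710, 745 and 628 in Tlx3cko libraries 1, 2 and 3. All 3 Tlx3cko libraries lay far below the lowest control, and control replicate 3 was the highest control, also after scaling. Normalized counts fell from 2656 ± 479.5 to 759.7 ± 191.5 (mean and SD, n = 3 each), so that 28.6% of the control level was left. The log2 fold change was -1.81 (SE, the standard error, 0.16, edgeR adjusted p = 2.63e-05). It ranged from -2.02 to -1.68 when single libraries were left out. In bulk tissue, fewer neurons that express a gene and less RNA per neuron cannot be told apart, for Mrgprd or for any gene below.

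Mrgpra3 (ENSMUSG00000078698) encodes a receptor that the antimalarial drug chloroquine activates. Control libraries held 273, 336 and 227 counts of it, and Tlx3cko libraries 25, 13 and 8. The groups were separated by a wide gap, with the highest Tlx3cko library far under the lowest control. The level fell from 270.3 ± 79.9 to 16.3 ± 8.12 normalized counts (mean and SD, n = 3 each), or to 6.04% of control. Its log2 fold change was -4.04 (SE 0.34, edgeR adjusted p = 1.47e-05), and the range with each library left out was -4.48 to -3.68.

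Mrgprx1 (ENSMUSG00000070552) encodes a receptor for a peptide cut from proenkephalin, and in mice it is found in part in the same neurons as Mrgpra3. Its counts were 332, 124 and 248 in control and 514, 285 and 439 in Tlx3cko libraries. Scaled for depth, every Tlx3cko library was above every control, but the controls were spread widely, with control replicate 1 high and control replicate 2 low. The mean rose from 226.6 ± 120 to 433.6 ± 60.4 normalized counts (mean and SD, n = 3 each). The log2 fold change was 0.95 with a 95% confidence interval of 0.35 to 1.54. It did not pass the threshold, with an edgeR adjusted p of 0.0798 after Benjamini-Hochberg adjustment (0.00434 before it). Without control replicate 1 it was 1.42 and passed (adjusted p = 0.00153), while in the other 5 fits with a library left out it did not pass, with an adjusted p of up to 0.238. Over all 11 alternatives the adjusted p ran from 1.05e-08 to 0.29, and the direction was higher in each.

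Mrgpra1 (ENSMUSG00000050650), whose receptor responds to peptides that end in arginine and phenylalanine amide, was near the limit of detection. Control libraries held 6, 8 and 7 counts and Tlx3cko libraries 10, 7 and 8. The groups overlapped. The log2 fold change was 0.41 with a 95% confidence interval of -0.92 to 1.74. Changes of either sign within this interval could not be told from no change at this depth.

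Mrgprb4 (ENSMUSG00000070550) marks rare neurons of hairy skin that respond to stroking, a touch rather than an itch stimulus. Its counts were 190, 181 and 261 in control and 0, 2 and 0 in Tlx3cko libraries. The controls were close together after scaling, and Tlx3cko replicate 2 was the only Tlx3cko library with any count. Pooled over each group these are 632 counts against 2, and the depth-scaled ratio of control to Tlx3cko was 279.7 (95% Clopper-Pearson interval 77.1 to 2310). The edgeR log2 fold change was -7.88 (SE 0.47, adjusted p = 1.12e-06). Without Tlx3cko replicate 2 the Tlx3cko libraries left are all at 0, and the fitted value moved to -10.69, which is no bound.

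Mrgprb5 (ENSMUSG00000070551) is the neighbour of Mrgprb4 and its closest relative among the members. Control libraries held 43, 64 and 32 counts and Tlx3cko libraries 2, 5 and 1. No Tlx3cko library came near the lowest control, which was control replicate 3. Normalized counts fell from 45.3 ± 19.2 to 3.16 ± 2.99 (mean and SD, n = 3 each), with a pooled ratio of control to Tlx3cko of 15.4 (95% Clopper-Pearson interval 7.59 to 36.3). The log2 fold change was -3.90 (SE 0.61, edgeR adjusted p = 0.00207). It moved to -4.83 without Tlx3cko replicate 2, and stayed past the threshold with each library left out.

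Mrgpre (ENSMUSG00000048965) and Mrgprf (ENSMUSG00000031070) are members without a settled ligand. Mrgpre had 445, 583 and 716 counts in control libraries, against 422, 301 and 412 in Tlx3cko. After scaling the 3 Tlx3cko values lay close together, below all controls. The mean went from 544.3 ± 55.7 to 402.2 ± 6.26 normalized counts (mean and SD, n = 3 each), and the log2 fold change was -0.44 (SE 0.11, edgeR adjusted p = 0.0462). This call was lost without control replicate 2 (adjusted p = 0.17), control replicate 3 (0.147), Tlx3cko replicate 1 (0.0843), Tlx3cko replicate 2 (0.181) or Tlx3cko replicate 3 (0.154). It held only without control replicate 1 (0.0208), and over these 6 fits the log2 fold change ranged from -0.52 to -0.39. The annotation places 66 bases of its exons, 1.8% of their length, under the small gene Gm22064 on the other strand.

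Mrgprf had 45, 55 and 76 counts in control libraries, against 61, 63 and 38 in Tlx3cko. The groups overlapped, with Tlx3cko replicate 2 the highest and Tlx3cko replicate 3 the lowest library after scaling. Its log2 fold change was 0.11 with a 95% confidence interval of -0.54 to 0.75 (edgeR adjusted p = 0.925), and its sign was not stable: it was -0.18 without Tlx3cko replicate 2 and -0.04 against control replicate 3 alone.

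**Figure D1:**
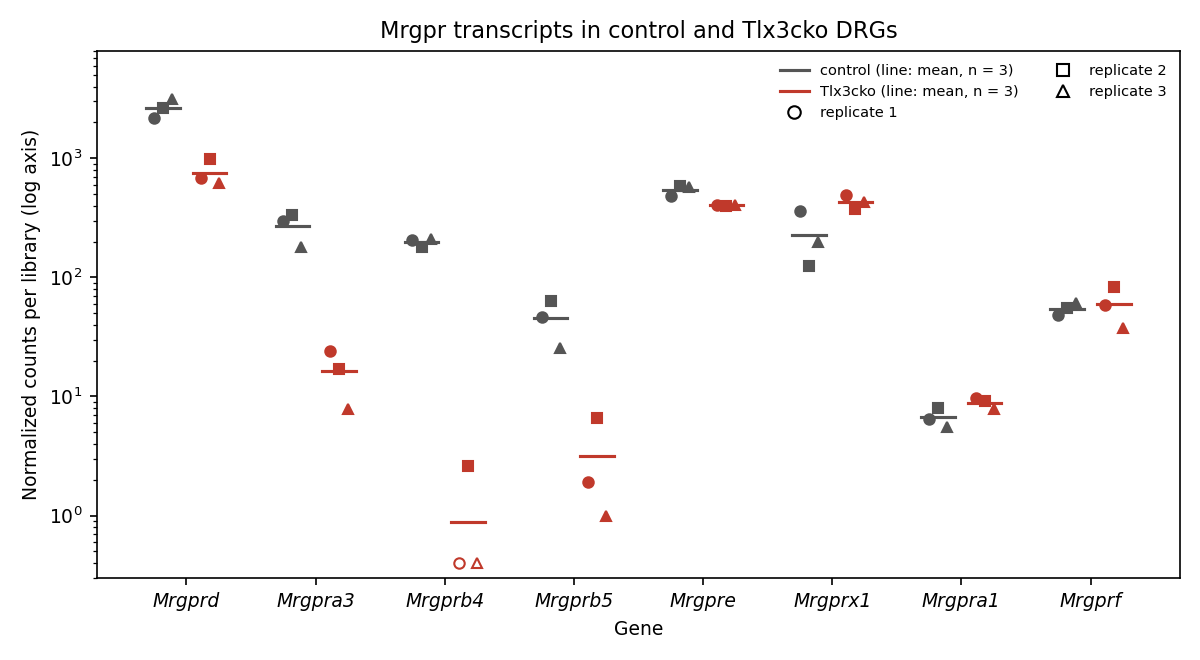
Normalized counts of the 8 members in each of the 6 libraries (log axis, lines are group means, open symbols stand for 0 counts, control and Tlx3cko, n = 3 each). Mrgpra3, Mrgprb4 and Mrgprb5 drop far below the controls in every Tlx3cko library, while the groups overlap in Mrgpra1 and Mrgprf.

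All 8 members passed the filter on low counts. Past the threshold in either direction were 5 of the 8, where 4.25% of all genes tested passed. All 5 were lower in Tlx3cko, where 2.56% of all genes tested were lower. By edgeR 0 of the 8 were higher, where 1.69% of all genes tested were, and DESeq2 also gave 0, while 1 member, Mrgprx1, was higher at an unadjusted p under 0.05. The groups did not overlap in 5 members with Tlx3cko lower, against 10.8% of genes tested, and in 1 with Tlx3cko higher, against 8.87%. The median log2 fold change of the members was -1.13, beside -0.004 over all genes tested. Among the alternatives, 4 of the 8 members, Mrgprd, Mrgpra3, Mrgprb4 and Mrgpra1, had the same direction and the same side of the threshold in all 11.

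Levels can be compared between genes only per length of transcript, here as TMM-scaled CPM per kilobase of merged exons. In control DRGs Mrgprd had the highest level, 56.4 ± 10.2 (SD, n = 3), and its lowest library, at 46.2, was above every library of the other members. Mrgpra3 at 13.9, Mrgprx1 at 12.8, Mrgprb4 at 10.9 and Mrgpre at 9.67 followed, with overlapping libraries. Mrgprb5 at 2.92 and Mrgprf at 1.65 overlapped each other, and Mrgpra1 was lowest at 0.41. In Tlx3cko DRGs the order was another: Mrgprx1 came first at 24.5 ± 3.42 and Mrgprd after it at 16.1 ± 4.07. Within each Tlx3cko library Mrgprx1 was above Mrgprd, with levels of 28.0 against 14.5, 21.2 against 20.8 and 24.5 against 13.1. Mrgpre at 7.14 and Mrgprf at 1.80 came next in Tlx3cko, then Mrgpra3 at 0.842, Mrgpra1 at 0.546, Mrgprb5 at 0.203 and Mrgprb4 at 0.0479. The libraries of Mrgpra3 overlapped those of Mrgprf, Mrgpra1 and Mrgprb5, and Mrgprb5 overlapped Mrgprb4, so these steps of the order were not separated.

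The summed level of the 8 members was 106.3, 107.4 and 112.4 in control libraries and 53.5, 53.5 and 46.9 in Tlx3cko libraries, with no overlap. Mrgprd made up 51.8% ± 7.91 of this sum in control and 31.3% ± 6.52 in Tlx3cko DRGs (mean and SD, n = 3 each). Mrgprx1 went the other way, from 11.9% ± 6.5 to 48.1% ± 7.32 of the sum. Mrgpra3 fell from 12.9% ± 4.08 to 1.61% ± 0.728, and Mrgprb4 from 9.98% ± 0.697 to 0.0897% ± 0.155. Mrgpre fell in level, yet its share of the smaller sum rose from 8.89% to 14%.

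**Figure D2:**
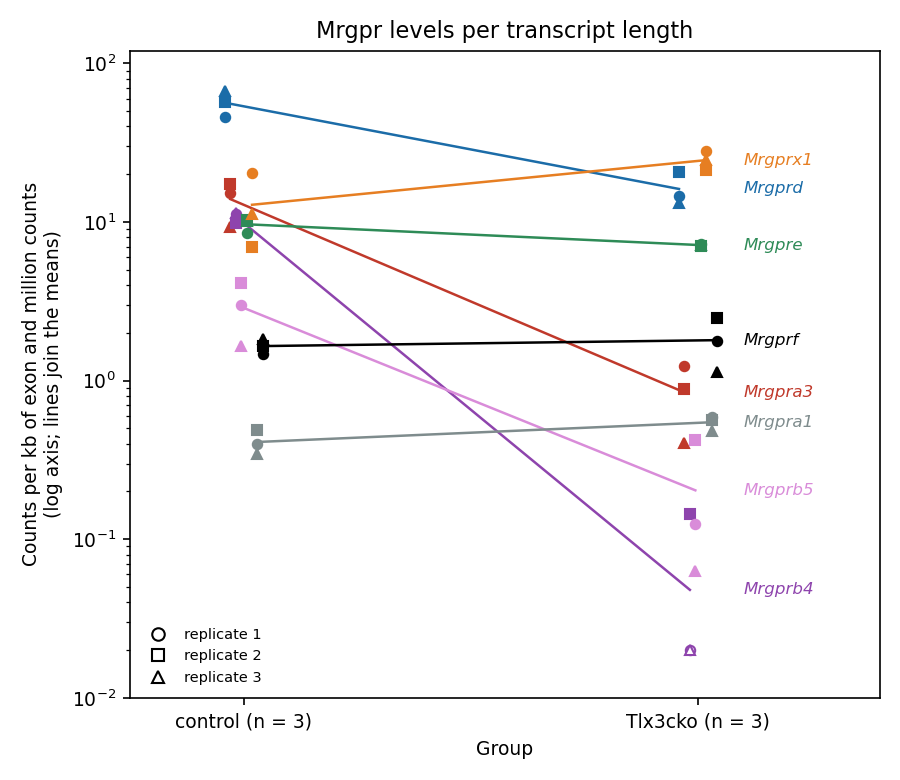
Level of each member as TMM-scaled CPM per kilobase of exon (log axis; points are single libraries, open points are 0 counts, lines join the group means; n = 3 each). Mrgprd is first in control DRGs and Mrgprx1 is first in Tlx3cko DRGs, and the lines of Mrgprb4, Mrgprb5 and Mrgpra3 fall most steeply.

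Ratios of counts within a library do not depend on its depth. The ratio of Mrgprx1 to Mrgpra3 was 1.22, 0.369 and 1.09 in control libraries and 20.6, 21.9 and 54.9 in Tlx3cko libraries, a mean log2 difference of 5.21. The pair thus parted in every Tlx3cko library. The ratio of Mrgprd to Mrgpra3 rose as well, from 7.37, 7.95 and 17.3 to 28.4, 57.3 and 78.5. Relative to Mrgprd, Mrgpra3 was thus lower in every Tlx3cko library than in any control. The ratio of Mrgprd to its neighbour Mrgprf fell from 44.7, 48.6 and 51.7 to 11.6, 11.8 and 16.5, and that of Mrgprd to Mrgpre from 4.52, 4.58 and 5.48 to 1.68, 2.48 and 1.52. For each of these 4 ratios the groups did not overlap, and the exact two-sided permutation p was 0.1, the smallest that 3 against 3 can give, both before and after Benjamini-Hochberg adjustment over the 4.

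Of the other 26 family genes in the table, 10 had enough counts to be tested, 6 had some counts below the filter and 10 had 0 in every library. By edgeR 2 of the 10 tested were lower past the threshold, where 2.56% of all genes tested were. None were higher, also at an unadjusted p under 0.05, where 1.69% of all genes tested were higher past the threshold. Both are pseudogenes. Mrgprx3-ps had 81, 240 and 435 counts in control libraries, against 60, 36 and 33 in Tlx3cko. Its controls differed widely from each other, yet the lowest of them was above all Tlx3cko libraries after scaling. The level fell from 224.6 ± 130 to 45.8 ± 12.7 normalized counts (mean and SD, n = 3 each), and the log2 fold change was -2.30 (SE 0.40, edgeR adjusted p = 0.00478), and the call was kept with each library left out. Mrgprc1-ps had 24, 24 and 26 counts in control libraries, against 0 in each from Tlx3cko. Against a floor of 3 counts per library it was at least 7.22-fold lower in Tlx3cko (edgeR adjusted p = 0.0016).

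Other genes of the Mrgpra subfamily had low or moderate counts and did not pass the threshold. Mrgpra2b had 71, 146 and 146 counts in control libraries, against 88, 63 and 89 in Tlx3cko. Its groups overlapped, at a log2 fold change of -0.41 (SE 0.24, edgeR adjusted p = 0.49). Mrgpra2a, at between 14 and 49 counts per library, also overlapped. Mrgpra4 had 2, 4 and 2 counts in control libraries, against 8, 6 and 8 in Tlx3cko. These few counts did not overlap after scaling, with Tlx3cko higher, but the log2 fold change of 1.57 came with an SE of 0.79 (edgeR adjusted p = 0.403). Mrgprb2, the receptor of mast cells, Mrgprb3, Mrgprb8 and Mrgprg had 0 counts in all 6 libraries, which allows up to 3 counts in each.

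Summed over the rows of a subfamily, the Mrgpra genes (9 in the table) had 386, 551 and 432 counts in control libraries, against 174, 109 and 138 in Tlx3cko. Every Tlx3cko sum was below the lowest control sum. As a single row in the edgeR fit the sum had a log2 fold change of -1.55 (SE 0.18, adjusted p = 0.000176). Mrgpra3 carried this difference: without its counts, a split made after the values were seen, the sums were 113, 215 and 205 in control libraries and 149, 96 and 130 in those of Tlx3cko, and the groups overlapped also after scaling. The Mrgprb sum (11 genes) was 235, 255 and 298 in control and 4, 7 and 3 in Tlx3cko libraries. Almost no Mrgprb reads were left in any Tlx3cko library, and the log2 fold change was -5.60 (SE 0.30, adjusted p = 4.6e-07). Both sums kept their direction and call in all 11 alternatives. Without the counts of Mrgprb4, likewise a split made after the values were seen, the Mrgprb sums were 45, 74 and 37 in control libraries. They were 4, 5 and 3 in those of Tlx3cko, and the groups did not overlap, also after scaling.

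Most family genes lie in 1 cluster on chromosome 7 of GRCm38, from 47185707 to 48685614, a length of 1499.9 kb. The annotation places 28 family genes in it, 15 of them coding and 13 pseudogenes, and 5 of the 8 members. Genes with different calls stood close together. Mrgprb4 (48198070 to 48199288) and Mrgprb5 (48167983 to 48169019) lie 29.1 kb apart, and both were lower. Mrgprx1 (48020971 to 48027597) lies 140.4 kb from Mrgprb5 and was higher, short of the threshold. Mrgpra3 (47588950 to 47601372) lies 10.02 kb from the lower pseudogene Mrgprc1-ps, and 419.6 kb from Mrgprx1.

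Mrgpra1 (47334875 to 47354240), with no detectable change, lies 24.6 kb from the lower pseudogene Mrgprx3-ps. Outside the cluster, Mrgprf (145300828 to 145309557) and Mrgprd (145314835 to 145324086) lie on the plus strand 5.28 kb apart, and of this pair Mrgprd alone passed the threshold. Whether their fold changes differ was compared only through the ratio of their counts. Mrgpre lies on the minus strand from 143778363 to 143784500. Among the genes outside the family within 100 kb of a member that were tested, none passed the threshold by edgeR. The nearest to it was Osbpl5 beside Mrgpre, at 717.4 normalized counts in control and 535.0 in Tlx3cko, a log2 fold change of -0.42 (SE 0.11, adjusted p = 0.0513), close to that of Mrgpre itself.

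**Figure D3:**
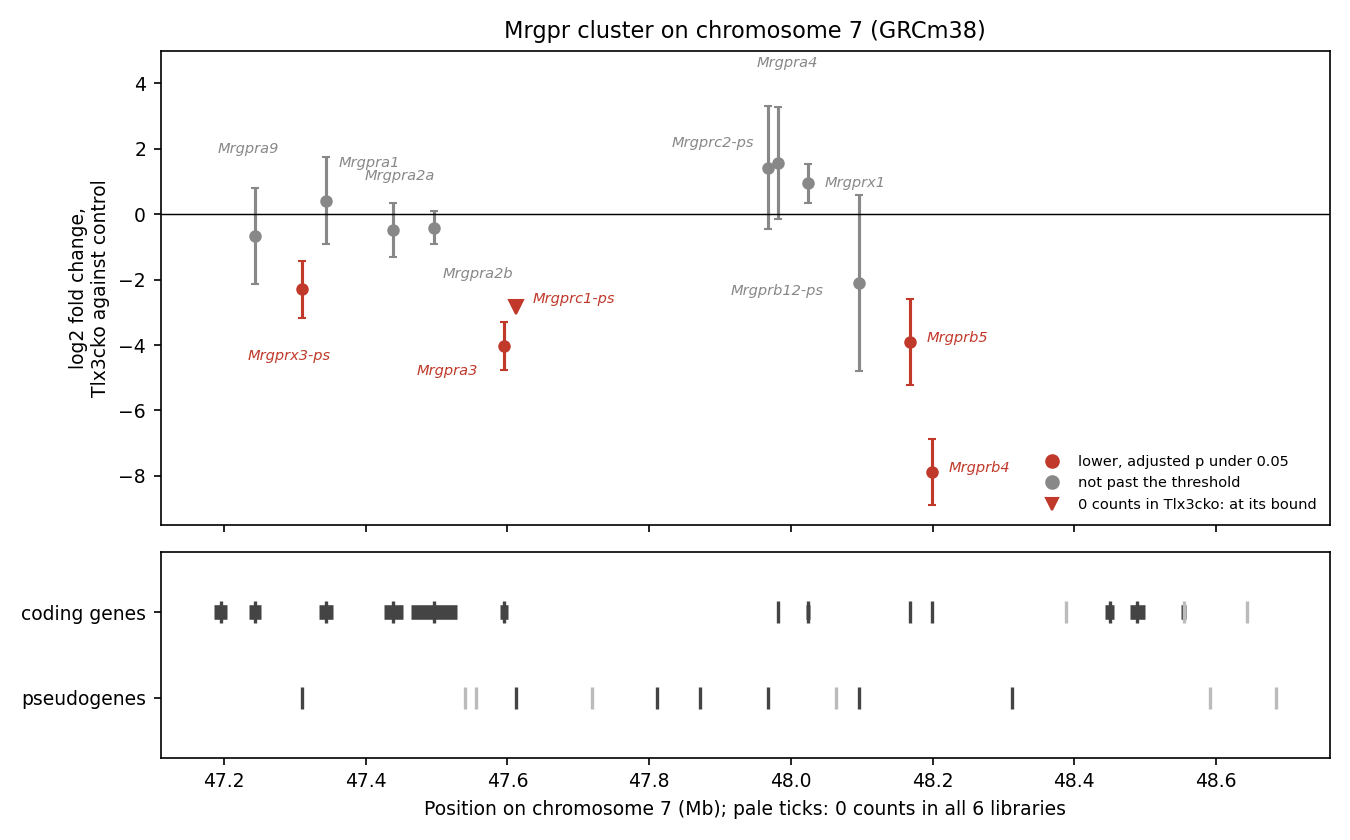
Log2 fold change (Tlx3cko against control, bars are 95% confidence intervals, n = 3 each) of the tested family genes by position on chromosome 7 in Mb (GRCm38), above the positions of all 28 annotated family genes of the cluster. The triangle is Mrgprc1-ps, with 0 counts in every Tlx3cko library, drawn without a bar at its bound of 7.22-fold lower. Genes past the threshold lie at several places along the cluster, and Mrgprx1, not past it, lies between the lower genes Mrgpra3 and Mrgprb5.

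Since family genes resemble each other, the transcripts were searched for stretches of at least 100 bases at 98% identity or more, over which reads could not be assigned to 1 gene with certainty. No member had such a stretch in common with another gene. The closest relative of Mrgprb4 was the pseudogene Mrgprb7-ps, at 91.2% identity over 964 bases, and that pseudogene had 0 counts in all libraries. Mrgprb5 and Mrgprb4 were 84.4% identical over 1034 bases. Mrgprx1 was closest to Mrgprc1-ps, at 90.1% over 960 bases, a pseudogene that was lower in Tlx3cko while Mrgprx1 was higher, short of the threshold. Mrgpra3 and Mrgpra4 were 88.4% identical over 1063 bases, and Mrgpra3 and Mrgpra2b were 82.3% identical over a longer stretch of 1246 bases. Outside the members there were such stretches. Mrgprc2-ps had 103 bases in common with Gk5, a gene named for this overlap alone. Mrgpra2a and Mrgpra2b were 99.8% identical over 1236 bases, so their counts cannot be told apart. Mrgprc1-ps was 99.0% identical over 942 bases to Gm9322, a gene chosen after its values were seen, which had 1 count in 1 control library and 0 in the others.

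Promoters from 250 bases before to 50 bases after the start of the gene as RefSeq places it were taken from RefSeq for GRCm38.p6, where 6 of the 8 members and 18 of the family genes in the table matched an entry; Mrgpra3 and Mrgprf did not. Mrgprb4 and Mrgprb5 are shown because they are neighbours and both fell to a small part of their control level. Their promoters had the same base at 246 of 300 positions (82%). Capitals mark the 5 runs of at least 12 bases that are the same at the same position in both, the longest of 21 bases. The sequences run 5′ to 3′ on the minus strand, at chr7:48199129-48199428 for Mrgprb4 and chr7:48168936-48169235 for Mrgprb5. The GENCODE annotation starts Mrgprb4 110 bases and Mrgprb5 34 bases further upstream than RefSeq, so 160 and 84 of the 300 bases lie inside the genes as positioned above.
Mrgprb4: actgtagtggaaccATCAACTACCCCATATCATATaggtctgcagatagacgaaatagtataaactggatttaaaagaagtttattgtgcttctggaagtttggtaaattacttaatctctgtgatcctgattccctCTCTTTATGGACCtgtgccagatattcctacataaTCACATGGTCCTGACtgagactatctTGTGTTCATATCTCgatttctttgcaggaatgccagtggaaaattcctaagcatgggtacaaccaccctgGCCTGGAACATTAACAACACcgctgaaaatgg
Mrgprb5: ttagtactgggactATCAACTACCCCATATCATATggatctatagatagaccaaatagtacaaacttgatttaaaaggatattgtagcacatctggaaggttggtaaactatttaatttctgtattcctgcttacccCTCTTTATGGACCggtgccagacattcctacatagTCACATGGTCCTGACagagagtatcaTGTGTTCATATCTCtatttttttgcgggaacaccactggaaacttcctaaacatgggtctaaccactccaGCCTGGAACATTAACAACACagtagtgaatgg

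The letters TGTGGT, the core that Runx factors bind, were searched on both strands (ACCACA on the other), since Runx1 is a known regulator of the family. They occurred in 5506 of the 32851 promoters in the table (16.8%). They were found in 1 of the 6 members with an entry and in 4 of the 18 family genes with one, namely Mrgpra1, Mrgprh, Mrgprx2 and Mrgprb2. Neither Mrgprb4, Mrgprb5 nor Mrgprd had these letters in this window. The promoter of Mrgpra1 is shown as the only one of a member that holds them, from chr7:47354191-47354490 on the minus strand, with the match at -105 from the start in capitals. A match is a description of the sequence and not a binding site or a cause.
Mrgpra1: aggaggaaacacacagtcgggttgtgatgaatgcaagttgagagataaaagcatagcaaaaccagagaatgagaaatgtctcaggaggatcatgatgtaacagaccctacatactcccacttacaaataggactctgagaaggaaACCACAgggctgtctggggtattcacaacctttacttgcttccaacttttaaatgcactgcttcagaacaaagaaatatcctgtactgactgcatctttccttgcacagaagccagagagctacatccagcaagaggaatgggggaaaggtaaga

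Genes known to regulate Mrgpr expression or the neurons that carry it were counted from a list of 17, of which 16 were tested. By edgeR 5 were lower past the threshold and 1 was higher, where 2.56% and 1.69% of all genes tested were. The median log2 fold change was -0.19. Runx1, the transcription factor needed for many members, had 1588, 1287 and 1699 counts in control libraries, against 634, 557 and 694 in Tlx3cko. All Tlx3cko libraries were well below all controls, and 46.5% of the control level was left (log2 fold change -1.11, SE 0.12, adjusted p = 0.00011). Gfra2, a coreceptor for neurturin, had 2053, 3433 and 4201 counts in control libraries, against 1215, 954 and 1241 in Tlx3cko. Its Tlx3cko libraries were close together and lower (log2 fold change -1.31, SE 0.14, adjusted p = 9.05e-05).

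Tlx3 had a log2 fold change of -0.46 (edgeR adjusted p = 0.0122), and its call was lost without Tlx3cko replicate 2, Tlx3cko replicate 3 or control replicate 2 (adjusted p up to 0.091). Ret, which encodes the receptor kinase that pairs with Gfra2, had a log2 fold change of -0.33 (adjusted p = 0.0381). That call was lost without control replicate 2, control replicate 3, Tlx3cko replicate 2 or Tlx3cko replicate 3 (up to 0.186). Zfp521 was at -0.61 (adjusted p = 0.0309), a call held only without control replicate 1 (up to 0.154 in the other fits). Cbfb, whose product binds DNA together with Runx1, was at 0.12 (adjusted p = 0.519). Against control replicate 3 alone, the sex-matched control, Tlx3 at -0.38 (adjusted p = 0.175) and Zfp521 at -0.69 (0.0868) did not pass.

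Downstream of the receptors, a list of 22 signalling genes had 4 lower, 4 higher and 14 not past the threshold by edgeR, with a median log2 fold change of 0.004. The subunits of the Gq class, through which many Mrgpr receptors act, did not pass: Gnaq was at -0.11 (adjusted p = 0.624), Gna11 at -0.17 (0.414) and Gna14 at -0.30 (0.0506). Gna14 was past the threshold by DESeq2 (adjusted p = 0.0239) and without the low-count filter (0.0312), and its adjusted p ran from 0.0239 to 0.224 over all alternatives. The phospholipase C genes parted. Plcb3, the most abundant of them, fell from 13005 ± 556 to 8129 ± 552 normalized counts (mean and SD, n = 3 each; log2 fold change -0.68, SE 0.07, adjusted p = 0.000118). Plcb1 had 348, 321 and 495 counts in control libraries, against 781, 628 and 887 in Tlx3cko. It was higher in every Tlx3cko library (log2 fold change 1.17, SE 0.11, adjusted p = 5.2e-05).

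Among the channels of the signalling list, Trpv1, the capsaicin receptor, went up, with a log2 fold change of 1.21 (SE 0.10, edgeR adjusted p = 1.37e-05) and all Tlx3cko libraries above all controls. Trpa1, the channel used in itch from Mrgpra3, had 549, 985 and 1064 counts in control libraries, against 636, 408 and 746 in Tlx3cko. Its groups overlapped (log2 fold change -0.36, SE 0.17, adjusted p = 0.333), but without control replicate 1 it was -0.54 and passed (adjusted p = 0.0402; 0.0235 to 0.733 over all alternatives).

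Of the remaining signalling genes past the threshold, the kinase gene Prkcd fell from 6852 ± 279 to 3624 ± 171 normalized counts (mean and SD, n = 3 each; log2 fold change -0.92, edgeR adjusted p = 9.38e-06). Gnao1, the most abundant gene of the list, had a log2 fold change of -0.34 (adjusted p = 0.00661), which was not past the threshold without Tlx3cko replicate 2 (0.0573). Itpr3 at 0.37 (adjusted p = 0.0462) and Kcnq3 at 0.38 (0.0402) lost their calls without control replicate 2, control replicate 3, Tlx3cko replicate 2 or Tlx3cko replicate 3 (up to 0.202 and 0.165), and did not pass against control replicate 3 alone (0.239 and 0.131).

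A list of 9 genes that switch receptors off had 4 lower and 1 higher by edgeR, with a median log2 fold change of -0.37. The regulators of G protein signalling Rgs4 and Rgs10 were the ones that fell most. Rgs4, the most abundant gene of the list, went from 17701 ± 3001 to 9043 ± 179 normalized counts (mean and SD, n = 3 each; log2 fold change -0.97, adjusted p = 0.000112), and Rgs10 had a log2 fold change of -0.97 (adjusted p = 0.00312). The receptor kinase gene Grk2 was at -0.37 (adjusted p = 0.00755), and did not pass without Tlx3cko replicate 3 (0.0661) or against control replicate 3 alone (0.121). Grk3 was at -0.66 (adjusted p = 0.0119), and its call was lost without control replicate 3 or Tlx3cko replicate 2 (up to 0.0764). Arrb1, an arrestin gene, was at 0.37 (adjusted p = 0.0393), and its call held only without control replicate 3 (up to 0.157 in the other fits with a library left out). Against control replicate 3 alone Arrb1 was at 0.18 (0.544).

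Genes that make ligands of the members, or the enzymes for them, were a list of 14 with 13 tested, since Npvf had 0 counts. By edgeR 2 were lower and 0 were higher, where DESeq2 gave 1 higher. At an unadjusted p under 0.05 by edgeR, 4 were lower and 2 were higher. The median log2 fold change was -0.15. Penk, the proenkephalin gene from which the Mrgprx1 ligand is cut, had 29, 57 and 126 counts in control libraries, against 13, 4 and 15 in Tlx3cko. The Tlx3cko libraries were below all controls, among which control replicate 3 was highest (log2 fold change -2.50, SE 0.47, adjusted p = 0.00782). Without control replicate 3 it was -1.98 and did not pass (0.0572). Gadl1, an enzyme that can make β-alanine, had 134, 268 and 239 counts in control libraries, against 100, 63 and 57 in Tlx3cko. These did not overlap (log2 fold change -1.36, SE 0.25, adjusted p = 0.00718), but against control replicate 3 alone, the sex-matched control, the value of -1.29 did not pass (0.053). Tac1, the most abundant gene of the list, was at 0.55 (adjusted p = 0.0611) and passed without control replicate 3 (0.72, adjusted p = 0.0222; 1.49e-07 to 0.547 over all alternatives).

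Markers of the neuron classes that carry the members were counted in the same edgeR fit. All 8 markers of the Mrgprd class, Mrgprd among them, were lower, with a median log2 fold change of -1.15, and their summed level was 1525, 1777 and 1860 CPM in control and 924.3, 932.5 and 828.6 in Tlx3cko libraries. Scn11a, a sodium channel gene, was the most abundant of them, at a log2 fold change of -0.79 (adjusted p = 0.00011). Of the 7 markers of the Mrgpra3 class, 4 of which are members, 4 were lower (Mrgpra3, Mrgprb4, Mrgprb5 and the histamine receptor gene Hrh1). Another 1, the most abundant of the 7, was higher, and 2 did not pass the threshold. The summed level of this list was 744.3, 631.2 and 601.9 CPM in control and 1186, 1128 and 1123 in Tlx3cko libraries. Of the 8 markers of the Nppb class of itch neurons 7 were lower, and of the 6 markers of touch neurons that carry Th all 6 were, Gfra2 being on this list too. In the peptidergic list 0 of 7 were lower and Calca and Trpv1 were among those higher, while 1 was lower at an unadjusted p under 0.05. In the list for myelinated neurons 0 of 6 were lower, also at an unadjusted p under 0.05, and 2 were higher, Nefh and Pvalb. Of the 7 markers of sensory neurons as a whole 0 were lower, also without adjustment, and Scn10a, the gene of Nav1.8, was higher (log2 fold change 0.43, adjusted p = 0.00281).

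Cells other than neurons are part of whole DRGs. For mast cells, which carry Mrgprb2, 6 of 7 markers were tested, and their summed level was low, 6.42, 10.6 and 5.97 CPM in control and 4.37, 4.03 and 3.55 in Tlx3cko libraries. Hdc was the most abundant of them and Tpsab1 had 1 count in all. Ms4a2, the 1 lower mast cell marker, had 6, 9 and 18 counts in control libraries, against 0 in each from Tlx3cko (edgeR adjusted p = 0.0257), a call held only without control replicate 1 (up to 0.0946 in the other fits). Of 6 fibroblast markers 3 were lower, Col1a1, Dcn and Pdgfra, with adjusted p-values of 0.0346, 0.0395 and 0.0354. Their summed level was 287.4, 321.1 and 300.8 CPM in control and 234.7, 222.3 and 246.3 in Tlx3cko libraries, with Dcn the most abundant. Each of these calls was lost in at least 4 of the 6 fits with a library left out: Col1a1 held only without control replicate 1 or Tlx3cko replicate 3, Dcn only without control replicate 3 or Tlx3cko replicate 1, and Pdgfra only without control replicate 2 (adjusted p up to 0.155, 0.201 and 0.154). Against control replicate 3 alone Ms4a2 (0.0752), Col1a1 (0.128), Dcn (0.452) and Pdgfra (0.0966) did not pass.

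Skeletal muscle markers, summed, stood at 104.7, 33.0 and 6.82 CPM in control and 186, 164 and 88.4 in Tlx3cko libraries. The groups overlapped, with control replicate 1 above Tlx3cko replicate 3. Of these 5 markers Myh4, the most abundant, was higher by edgeR, with 218, 100 and 21 counts in control libraries, against 1256, 655 and 423 in Tlx3cko (log2 fold change 2.87, adjusted p = 0.0101). It moved to 3.89 without control replicate 1 and to 5.62 against control replicate 3 alone (adjusted p = 0.0016), the control with the fewest Myh4 counts, and did not pass without control replicate 2 (2.79, adjusted p = 0.0611; 8.15e-87 to 0.0639 over all alternatives). Of 5 Schwann cell markers Egr2 was higher (adjusted p = 0.0241), a call lost without control replicate 1, control replicate 2, Tlx3cko replicate 2 or Tlx3cko replicate 3 (up to 0.117) and against control replicate 3 alone (0.336). By edgeR 0 markers passed for smooth muscle and pericytes, satellite glia, macrophages, blood and spinal cord. At an unadjusted p under 0.05 there were 2 for smooth muscle and pericytes, 2 for satellite glia, 1 for macrophages, 1 for blood and 0 for spinal cord. The part of fibroblasts, muscle, mast cells or Schwann cells in the values of the members was not tested.

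The genes whose log2 levels over the 6 libraries were most like those of a member were ranked by Pearson correlation among the 13372 other genes whose mean was 50 normalized counts or more. This is a description, since any gene that differs steadily between the groups scores high: 183 genes had r above 0.95 with Mrgprd and 175 with Mrgpra3. Nearest to Mrgprd were Axin2 (r = 0.998), Uaca (0.997), Gm16638 (0.995), Tspan2 (0.995) and Gm16364 (0.994). Of these Gm16364 changed most, with 130, 208 and 276 counts in control libraries, against 19, 20 and 16 in Tlx3cko, and 10.6% of its control level was left. Nearest to Mrgpra3 were Capn1 (r = 0.996), Plcb3 (0.995), Tox2 (0.994), Acbd4 (0.993) and Trpm8 (0.992). Tox2 had 474, 613 and 580 counts in control libraries, against 273, 192 and 207 in Tlx3cko, with no overlap. Capn1, at a log2 fold change of -0.18 (edgeR adjusted p = 0.196), followed the order of the libraries in Mrgpra3 and not the size of its change.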

How the data were processed

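The authors deposited raw counts per gene and library without normalization, from 150 bp paired-end reads; the labels name STAR 2.5.2a and mm10, and the counting program and use of strand are not given. Counts were analysed with R 4.3.3, edgeR 4.0.16 (TMM, genes with at least 10 counts, glmQLFit and glmQLFTest, Benjamini-Hochberg over 20006 genes, threshold 0.05), Python 3.11.15, Biopython 1.88 and blastn 2.17.0. Names, positions and exon lengths come from GENCODE M21 on GRCm38. Replicates were kept as separate samples (chi-square per degree of freedom 4.32 to 10.1). Library totals ranged from 11458299 to 18775628 counts. Members, lists and tests were chosen with earlier results of these data known. The genes named are the members, other Mrgpr genes and Mas1, list genes past the threshold or most abundant, Tlx3, Xist, Ddx3y, and the 5 genes most like Mrgprd and Mrgpra3 (log2 CPM, prior count 2); other list genes given with values were chosen after those were seen. The alternatives were DESeq2 1.42.0, RLE normalization, no low-count filter, the replicate number as a block, control replicate 3 as the only control, and each library left out. Some genes covered by these lists are not reported here.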

Additional observations from a re-analysis of the deposited data

How the results depend on the processing

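Of the 8 members, 4 had the same direction and side of the threshold in all 11 alternatives, and so did 33 of the 59 other genes examined this way, none of which changed direction. RLE scaling and DESeq2 moved the median log2 fold change of all genes only from -0.004 to 0.001.

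Without the low-count filter 1529 genes passed the threshold (858 lower, 671 higher) in place of 851 (512 lower, 339 higher), and 1 member was higher, Mrgprx1 at a log2 fold change of 0.944 (adjusted p = 1.05e-08); the cause was not tested.

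With the replicate block 1 member was higher, Mrgprx1 at 1.036 (adjusted p = 0.00488), and Mrgpre at -0.431 did not pass (0.0794). The replicate numbers do not pair the libraries: deviations from the group means correlated at -0.129, -0.016 and -0.109 between libraries of the same number.

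Against control replicate 3 alone, with fewer samples, 546 genes passed, 193 of them higher, and 3 members were lower and 1 higher. Mrgprx1 passed at 1.133, Mrgprb5 at -3.068 and Mrgpre at -0.507 did not, and Mrgprf changed sign to -0.041.

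With each library left out in turn, between 488 and 938 genes passed, 310 to 530 lower and 175 to 408 higher, with 0 to 1 members higher. The log2 fold change ranged from 0.656 to 1.421 for Mrgprx1, from -0.52 to -0.388 for Mrgpre, and from -0.179 to 0.358 for Mrgprf, whose sign changed without Tlx3cko replicate 2. The cause of these changes was not tested. Depth limits Mrgpra1 and Mrgpra4, at 10 counts or fewer per library, and any member of the family at 0 counts.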
